A study of Mus musculus with 32 samples.

Results

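The citric acid cycle and fatty acid oxidation were followed through 36 genes, 17 for the cycle together with the pyruvate dehydrogenase complex that feeds it and 19 for the oxidation of fatty acids. A gene counted as measured where a probe named for it in the platform table had a detection p under 0.01 in at least 6 of 32 arrays. This held for 17 of 17 cycle genes and 16 of 19 oxidation genes, that is 33 of 36, among 8674 named genes measured in all. The arrays came from whole brains of naïve male mice, 1 Illumina Mouse Ref8 v2 array per mouse. The R8 congenic (10 mice) carries a short D2 (DBA/2J) segment of distal chromosome 1 on the inbred B6 (C57BL/6J) background and was set against B6 (10 mice). In the R2 congenic (6 mice), set against D2 (6 mice), the donor is B6 and the recipient D2, and the donor piece of that chromosome arm is longer. R2 and R8 are therefore not exact reciprocals. The 12 mice of the D2 background (R2 and D2) were also set against the 20 of the B6 background (R8 and B6), which asks how far strain background, rather than the segment, moves these genes. No mouse had been given alcohol, and the labels name neither litters nor array slides.

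The citric acid cycle oxidizes acetyl-CoA in the mitochondrial matrix and passes the electrons to the respiratory chain. In brain the acetyl-CoA comes mostly from glucose, through pyruvate dehydrogenase. Fatty acids enter mitochondria as carnitine esters and are shortened by repeated rounds of dehydrogenation, hydration, dehydrogenation and thiolysis, and peroxisomes carry out a related chain on very long fatty acids. In the brain, fatty acid oxidation is known mainly from astrocytes and is a minor source of energy. In whole-brain RNA, fewer cells of a type and less RNA per cell cannot be told apart.

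In the GRCm38.p6 annotation, 2 measured members lie on chromosome 1. Acadl is at 66830839 to 66863309, and Fh1 is at 175601378 to 175625635, 1.00 Mb beyond the distal end of the R2 segment. None of the measured members lies within the R2 segment. The promoters below belong to the members whose difference between the backgrounds was called and had the same sign in every tested probe. Each is the 300-base promoter window given for the gene by RefSeq (GRCm38.p6, the B6 reference), written 5′ to 3′ on the gene's own strand. Capitals mark the SP1 box GGGCGG, or CCGCCC where it lies on the opposite strand.
Acaa1a, chr9:119341044-119341343, plus strand: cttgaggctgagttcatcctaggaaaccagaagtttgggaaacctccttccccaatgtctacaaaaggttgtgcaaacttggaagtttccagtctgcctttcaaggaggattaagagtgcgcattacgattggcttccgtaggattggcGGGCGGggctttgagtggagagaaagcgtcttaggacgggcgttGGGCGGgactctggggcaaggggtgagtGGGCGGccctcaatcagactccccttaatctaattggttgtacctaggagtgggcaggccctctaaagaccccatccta
Acadl, chr1:66863260-66863559, minus strand: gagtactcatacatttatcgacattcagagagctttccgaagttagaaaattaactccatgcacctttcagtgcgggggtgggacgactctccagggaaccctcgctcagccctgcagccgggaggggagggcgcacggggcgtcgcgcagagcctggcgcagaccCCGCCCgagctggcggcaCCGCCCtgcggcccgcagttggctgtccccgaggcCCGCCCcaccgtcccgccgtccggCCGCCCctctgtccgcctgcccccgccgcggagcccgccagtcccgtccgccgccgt
Mdh2, chr5:135778399-135778698, plus strand: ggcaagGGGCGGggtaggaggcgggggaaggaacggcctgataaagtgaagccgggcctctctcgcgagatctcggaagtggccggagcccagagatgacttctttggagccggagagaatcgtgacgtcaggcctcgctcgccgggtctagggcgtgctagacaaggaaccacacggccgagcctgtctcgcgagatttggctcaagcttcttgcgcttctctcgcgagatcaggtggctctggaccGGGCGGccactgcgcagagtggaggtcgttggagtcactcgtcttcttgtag
On both strands, the box occurred 3 times in the Acaa1a window, 4 times in that of Acadl and 2 times in that of Mdh2. It was present in 25 of the 33 members with a promoter in the table (75.8%), which are not the same 33 as those measured, and in 35.7% of all 32851 promoters. Here and below, a member gene counted if any of its promoters had the letters, while the share of all promoters counts each promoter singly. The nuclear receptor half-site AGGTCA was in 9 (27.3%, against 16.3%) and in none of the windows printed. The ERR element TCAAGGTCA, searched on both strands like the others and containing the half-site AGGTCA, was in 0 members and in 0.423% of all promoters. The Acaa1a window lies wholly inside the annotated gene, which starts at 119341028, and so holds nothing upstream of that position. Such matches describe letters in a window and are not binding sites.

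Median raw signal ranged from 380.2 to 578.5 over the 32 arrays, and 10834 to 12283 of 25697 probes were detected per array. In successive runs of 8 neighbouring columns, the mean of these medians fell from 537.4 to 496.4, 464.5 and 420.6. Each run held arrays of every strain. D2 replicate 1 stood apart, with a median correlation of 0.980 to the other D2 arrays, against 0.987 to 0.992 for every other array within its strain. It was the lowest D2 array for 9 of the 33 members and the highest for 7, beside 29.6% and 26.9% of all tested probes. The main results on D2 are therefore also given without it. As markers of the tissue, all 6 astrocyte, 5 oligodendrocyte and 6 microglia genes with a probe were detected in every array. Of 7 neuron genes, Snap25 and Nefl were detected in none and the other 5 in every array. The 4 liver and muscle genes were detected in none.

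All 17 cycle genes were detected in every array. In fatty acid oxidation, detection was partial for a few genes. Cpt1a, the liver-type enzyme that loads long-chain acyl groups onto carnitine, and Ehhadh, a bifunctional enzyme of peroxisomes, were detected in 0 of 32 arrays and were not tested. Hadha, the α subunit of the mitochondrial trifunctional protein, has no named probe in the table used here. Its partner Hadhb was detected in every array, and the promoter windows of this head-to-head pair on chromosome 5 share 228 bases. Decr1, which prepares unsaturated acyl-CoA for oxidation, was detected in 3 R8, 2 B6, 1 R2 and 1 D2 arrays, and Acads, the short-chain acyl-CoA dehydrogenase, in 3, 8, 2 and 2. Hadh, the hydroxyacyl-CoA dehydrogenase for short chains, was detected in 8, 6, 6 and 4. Most Decr1 and Acads signals, and 8 of 32 for Hadh, were not above background. All values that follow are log2 normalized signals, and differences are on that log2 scale.

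No gene of either pathway was called between R8 and B6. Of the 33 members, 0 passed an adjusted p of 0.05 (limma, Benjamini-Hochberg over 12351 probes), beside 0.0810% of all probes, and 0 had an unadjusted p under 0.05, beside 4.13%, or under 0.01, beside 0.939%. The differences of the 17 cycle genes lay between -0.06 and 0.07 with a median of -0.03, and those of the 16 oxidation genes between -0.12 and 0.10 with a median of 0.01. Over all tested probes the median was -0.00. The 95% interval lay within 0.25 of 0, a change of 1.19-fold, for 17 of 17 cycle genes and 13 of 16 oxidation genes. The exceptions, Acads, Hadh and Decr1, are the 3 genes with partial detection.
Among the cycle genes, the smallest p belonged to Mdh2, the mitochondrial malate dehydrogenase that closes the cycle. It had 12.98, 13.13 and 13.24 in R8 as the lowest, median and highest array, and 12.96, 13.19 and 13.31 in B6 (difference -0.05, SE 0.047, adjusted p = 1.00, n = 10 per strain). Here 0 R8 arrays lay outside the range of B6. For Idh2, the NADP-dependent isocitrate dehydrogenase of mitochondria, and Idh3b, a subunit of the NAD-dependent enzyme of the cycle, the differences were -0.05 and -0.05 (SE 0.047 and 0.049).
Among the oxidation genes it was Hadhb, the β subunit of the trifunctional protein that carries its thiolase, with 13.51, 13.59 and 13.71 in R8 and 13.39, 13.54 and 13.64 in B6 (difference 0.06, SE 0.040, adjusted p = 1.00). The groups overlapped, with 3 of 10 R8 arrays above every B6 array. Acadl, the long-chain acyl-CoA dehydrogenase, differed by 0.10 (SE 0.068), and its other tested probe by -0.15 (SE 0.119). Slc25a20, the carrier that brings acylcarnitines into the matrix, differed by 0.04 (SE 0.035).

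**Figure D1:**
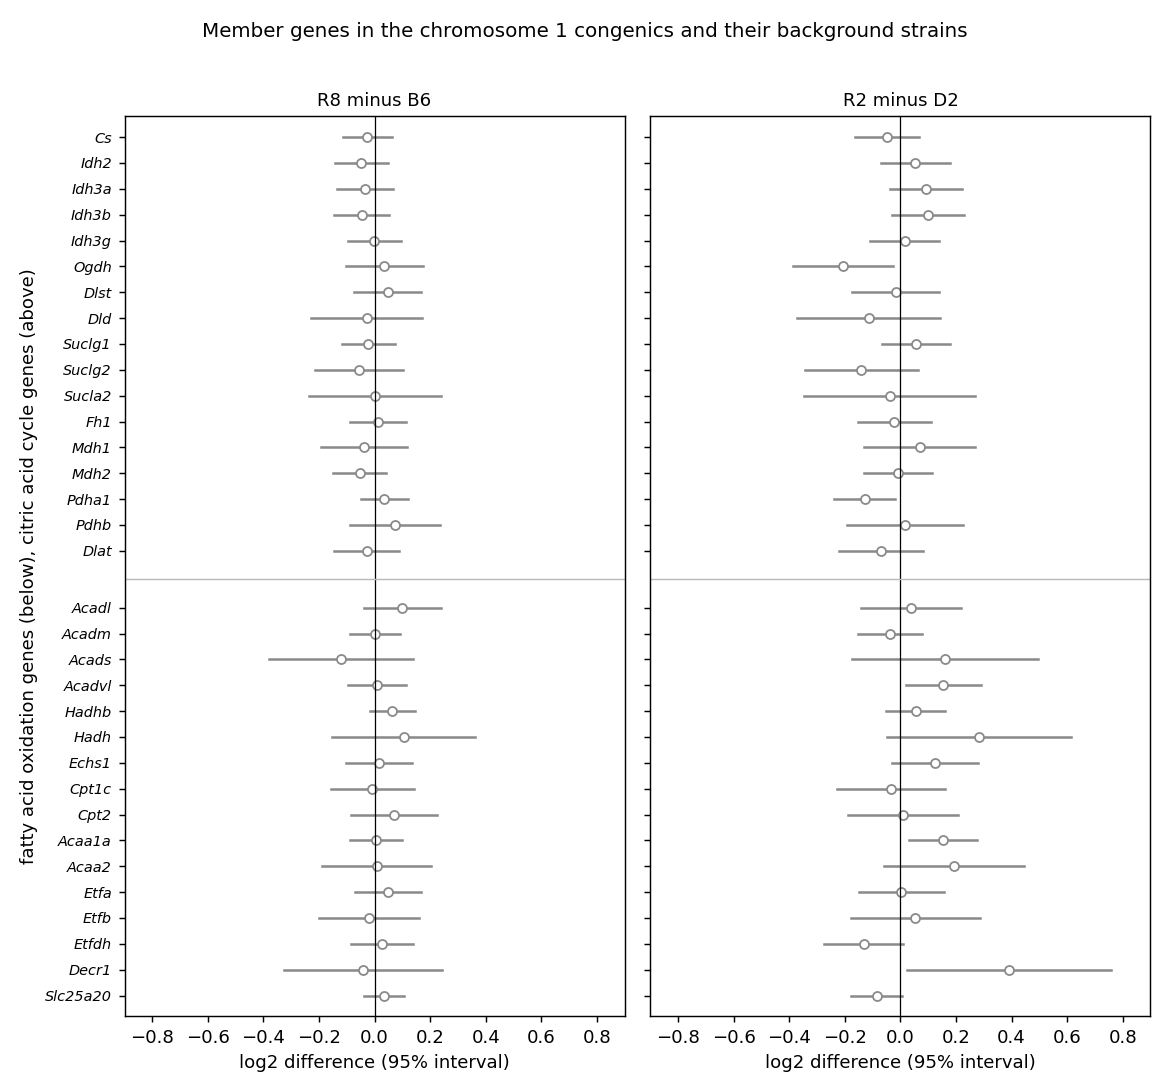
Log2 differences (horizontal axis) of the 33 measured members in R8 minus B6 (left, n = 10 and 10) and R2 minus D2 (right, n = 6 and 6), with 95% intervals from limma. Open points did not pass an adjusted p of 0.05. Every point is open, and the R2 minus D2 intervals are wider.

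Between R2 and D2 no member was called either. This was 0 of 33, beside 0.494% of all probes. An unadjusted p under 0.05 was reached by 5 members, beside 15.3% of all probes, and an unadjusted p under 0.01 by 0, beside 5.12%. The 17 cycle genes ranged from -0.21 to 0.10 (median -0.02), and the 16 oxidation genes from -0.13 to 0.39 (median 0.05), with a median of 0.00 over all probes. With 6 mice per strain the intervals were wider, and they lay within 0.25 of 0 for 12 of 17 and 7 of 16 genes. Differences above 0.25 in size were thus not excluded for the remaining 14 genes.
Pdha1, the catalytic α subunit of pyruvate dehydrogenase on the X chromosome, had 13.78, 13.90 and 13.94 in R2 and 13.87, 14.00 and 14.12 in D2. The difference was -0.13 (SE 0.054, p = 0.0233, adjusted p = 0.259), with 2 of 6 R2 arrays below every D2 array. Ogdh, the first subunit of the 2-oxoglutarate dehydrogenase complex, had 11.36, 11.51 and 11.81 in R2 and 11.58, 11.78 and 11.89 in D2. Its difference was -0.21 (SE 0.089, p = 0.0268, adjusted p = 0.270), and 4 of 6 R2 arrays lay below all D2 arrays. The third cycle gene by p was Idh3b, at 0.10 (SE 0.064, p = 0.129), or 0.04 (p = 0.494) without D2 replicate 1.
Of the oxidation genes, Acaa1a, the thiolase of peroxisomes, had 12.39, 12.44 and 12.50 in R2 and 12.09, 12.30 and 12.46 in D2. It differed by 0.15 (SE 0.060, p = 0.0163, adjusted p = 0.232), and the strains overlapped, with 1 R2 array above every D2 array. Acadvl, the very-long-chain acyl-CoA dehydrogenase, had 11.18, 11.42 and 11.50 in R2 and 10.98, 11.19 and 11.45 in D2 (difference 0.15, SE 0.066, p = 0.0263, adjusted p = 0.268). The low signal of Decr1 gave a difference of 0.39 (SE 0.180, p = 0.0380, adjusted p = 0.304), which was 0.16 in the authors' normalized table.
Without D2 replicate 1, which was the lowest D2 array for Acaa1a, Acadvl and Decr1, none of the 5 had a p under 0.05. The differences became -0.11 for Pdha1 (p = 0.0543), -0.18 for Ogdh (p = 0.0647), 0.11 for Acaa1a (p = 0.0632), 0.11 for Acadvl (p = 0.105) and 0.28 for Decr1 (p = 0.130).

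The effect of the D2 allele was also compared between the backgrounds, as D2 minus R2 against R8 minus B6. The donor segments differ in length, so this contrast also takes in the part that R2 alone carries. This interaction was called for 0 of 33 members, beside 0.113% of all probes, and 1 had an unadjusted p under 0.05, beside 8.26%. The smallest p among oxidation genes belonged to Acaa1a, at -0.16 (SE 0.076, p = 0.0471, adjusted p = 0.597), followed by Acadvl at -0.16 (SE 0.084) and Hadh at -0.39 (SE 0.207). Among cycle genes it belonged to Suclg2, the GTP-forming β subunit of succinyl-CoA synthetase, at 0.20 (SE 0.127, p = 0.130), followed by Ogdh at 0.17 (SE 0.112) and Pdha1 at 0.09 (SE 0.068). Without D2 replicate 1 none of the 33 had an unadjusted p under 0.05, and the interaction was -0.12 for Acaa1a (p = 0.117), -0.25 for Hadh (p = 0.198) and 0.12 for Suclg2 (p = 0.326).

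Between the backgrounds, Acaa1a was the member that differed most. It was lower in the D2 background, while Acadl, Mdh2 and 1 probe of Pdhb were higher. In all 4 of 33 members were called (12.1%), fewer than the 28.0% of all tested probes. Of the cycle genes 2 of 17 were called, both higher, and of the oxidation genes 2 of 16, 1 higher and 1 lower. Over all probes 15.1% were higher and 12.9% lower. The median difference was 0.05 over the cycle genes and 0.02 over the oxidation genes, beside 0.02 over all probes. Counting probes instead of genes gave 7 of 48 (14.6%), 5 higher and 2 lower.
Acaa1a cleaves acetyl-CoA from the shortened chain in peroxisomes. It had 12.39, 12.44 and 12.50 in R2 and 12.09, 12.30 and 12.46 in D2, against 12.99, 13.09 and 13.23 in R8 and 12.84, 13.09 and 13.28 in B6. All 12 arrays of the D2 background lay below all 20 of the B6 background, a separation shown by 4.89% of tested probes. The difference was -0.73 (SE 0.038, adjusted p = 1.75e-17), which is 1.66-fold lower. It was -0.71 without D2 replicate 1. Acaa1b, a closely related thiolase gene nearby on chromosome 9, was detected in 0 of 32 arrays. Acaa1a was read by a single probe, and whether the strains differ in sequence under it was not tested.
Acadl removes the first hydrogens from long-chain acyl-CoA. Its brighter probe had 8.65, 8.80 and 8.96 in R2 and 8.61, 8.77 and 8.84 in D2, against 8.12, 8.54 and 8.84 in R8 and 8.29, 8.45 and 8.61 in B6. All R2 arrays and 5 of 6 D2 arrays lay above every B6 array, while R8 spread over both ranges. The difference was 0.28 (SE 0.056, adjusted p = 0.000115), or 0.16 without background correction. The dimmer probe, detected in 6 R2, 5 D2, 7 R8 and 9 B6 arrays, gave 0.28 as well (SE 0.097, adjusted p = 0.0270). That second call was lost (adjusted p up to 0.0592) when any 1 of R2 replicates 1 and 4 and D2 replicates 4, 5 and 6 was left out.
Mdh2 had 13.19, 13.31 and 13.42 in R2 and 13.18, 13.31 and 13.41 in D2, against 12.98, 13.13 and 13.24 in R8 and 12.96, 13.19 and 13.31 in B6. The backgrounds overlapped, with 5 of 12 arrays above every array of the B6 background. The difference was 0.15 (SE 0.038, adjusted p = 0.00195). Mdh1, the cytosolic malate dehydrogenase of the malate-aspartate shuttle, had 0.11 (SE 0.062, adjusted p = 0.203).

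**Figure D2:**
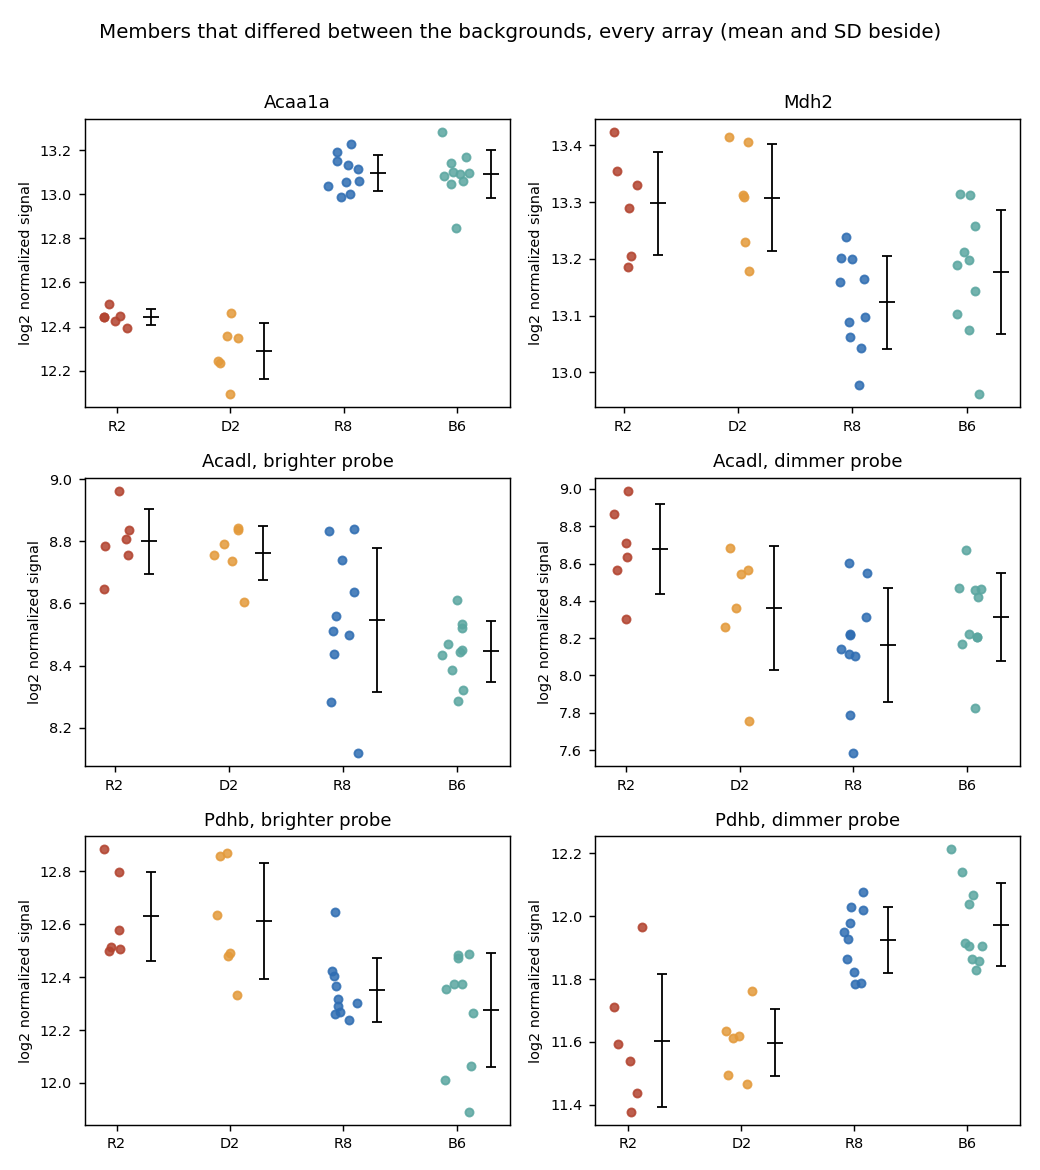
Log2 normalized signal of every array for the called members, by strain (R2 and D2, then R8 and B6). Points are arrays and the bar beside them is the mean with the SD (n = 6, 6, 10 and 10). Acaa1a separates the backgrounds without overlap, and the 2 Pdhb probes run in opposite directions.

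Pdhb, the β subunit of pyruvate dehydrogenase, had no settled direction. Its brighter probe had 12.50, 12.54 and 12.88 in R2 and 12.33, 12.56 and 12.87 in D2, against 12.24, 12.31 and 12.65 in R8 and 11.89, 12.36 and 12.49 in B6 (difference 0.31, SE 0.065, adjusted p = 0.000327). Its dimmer probe had 11.38, 11.57 and 11.96 in R2 and 11.47, 11.62 and 11.76 in D2, against 11.78, 11.94 and 12.08 in R8 and 11.83, 11.91 and 12.21 in B6, a difference of -0.35 (SE 0.051, adjusted p = 1.23e-06). Both probes were detected in all 32 arrays and both overlapped between the backgrounds. The other subunits of the complex, Pdha1, Dlat (the acetyltransferase core) and Dld (the lipoamide dehydrogenase it shares with the 2-oxoglutarate dehydrogenase complex), had 0.01, -0.02 and 0.09. Acadm, the medium-chain acyl-CoA dehydrogenase, was the other member whose probes differed in call. The brighter gave 0.03 (SE 0.036, adjusted p = 0.647) and the dimmer 0.20 (SE 0.060, adjusted p = 0.0115). In the remaining 6 genes with several tested probes, none was called.
Among the other cycle enzymes no probe was called between the backgrounds. Cs, which condenses acetyl-CoA with oxaloacetate, had 0.06 (SE 0.035), the isocitrate dehydrogenase subunits Idh3a, Idh3b and Idh3g had 0.02, 0.06 and 0.06, and Idh2 had 0.02. Ogdh and Dlst, its succinyltransferase partner, had -0.02 and -0.01. Of the succinyl-CoA synthetase subunits, Suclg1 had -0.00, Sucla2 -0.04 and Suclg2 0.16 (SE 0.063, adjusted p = 0.0622). Suclg2 passed the test when runs of 8 adjacent arrays in the table were fitted as blocks (adjusted p = 0.0271). Fh1, the fumarase, had 0.05 (SE 0.040).
Cpt1c, a brain isoform of the carnitine palmitoyltransferase family, had -0.12 (SE 0.060, adjusted p = 0.154). In the carnitine shuttle, Cpt2, which returns the acyl group to CoA in the matrix, had 0.08 (SE 0.062) and Slc25a20 -0.01 (SE 0.029). The matrix enzymes Hadhb, Hadh, Echs1 (the enoyl-CoA hydratase) and Acaa2 (the mitochondrial thiolase) had 0.06, 0.17, 0.06 and -0.08. Etfa, Etfb and Etfdh, which pass electrons from the acyl-CoA dehydrogenases to ubiquinone, had 0.01, -0.08 and 0.03. Without D2 replicate 1, Echs1 was called as well, at 0.10 (SE 0.038, adjusted p = 0.0458), where it was 0.06 with that array (adjusted p = 0.411).

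The background difference was also read in the parental strains and in the congenics, which share no mouse. D2 minus B6 called 3 of 33 members (20.4% of all probes), and R2 minus R8 called 4 of 33 (21.7%). Acaa1a had -0.80 (SE 0.054, adjusted p = 3.17e-14) in D2 minus B6 and -0.65 (SE 0.054, adjusted p = 5.82e-12) in R2 minus R8, without overlap in either. That separation was shown by 7.72% and 8.67% of probes. Acadl had 0.32 (SE 0.079, adjusted p = 0.00292) in D2 minus B6 and 0.25 (SE 0.079, adjusted p = 0.0174) in R2 minus R8. Its dimmer probe had 0.05 (SE 0.137, adjusted p = 0.857) in D2 minus B6 and 0.51 (SE 0.137, adjusted p = 0.00537) in R2 minus R8. Mdh2 had 0.13 (SE 0.054, adjusted p = 0.0841) in D2 minus B6 and 0.17 (SE 0.054, adjusted p = 0.0161) in R2 minus R8. The brighter Pdhb probe had 0.33 (adjusted p = 0.00692) and 0.28 (adjusted p = 0.0260), and the dimmer one -0.38 (adjusted p = 0.000136) and -0.32 (adjusted p = 0.00101). Without D2 replicate 1, D2 minus B6 was -0.76 for Acaa1a, 0.32 for Acadl, 0.15 for Mdh2 (adjusted p = 0.0676) and 0.36 for the brighter Pdhb probe. In R2 minus R8, the calls of Acadl, Mdh2 and Pdhb each rested on single arrays. That of Acadl was lost without R2 replicate 6 (adjusted p = 0.0568), that of Mdh2 without R2 replicate 3 (0.0607), and that of Pdhb without R2 replicate 2 (0.0750) or 6 (0.0916).

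**Figure D3:**
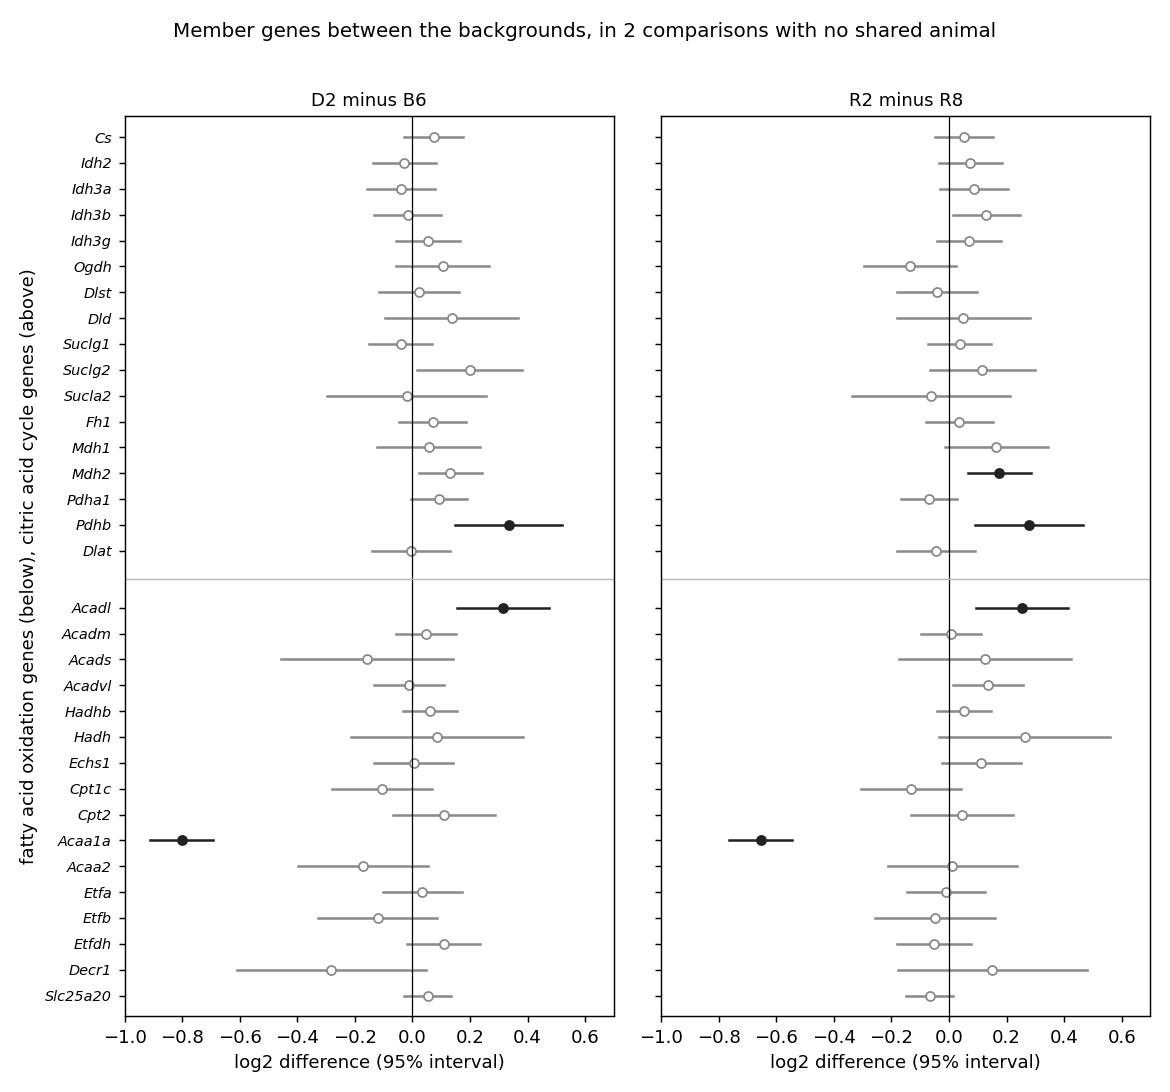
Log2 differences (horizontal axis) of the 33 measured members in D2 minus B6 (left, n = 6 and 10) and R2 minus R8 (right, n = 6 and 10), with 95% intervals from limma. Filled points passed an adjusted p of 0.05, 3 on the left and 4 on the right. Acaa1a lies far to the left in both.

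Some cell type markers were called between the backgrounds too, beside 28.0% of all tested probes (15.1% higher and 12.9% lower). Of 6 microglia genes, 4 were lower in the D2 background (C1qc by a difference of -1.03, C1qb by -1.14), and the log2 of their summed signal ranged from 11.99 to 12.47 there, against 12.71 to 12.97 in the B6 background. For 5 oligodendrocyte genes, 3 of them lower (Cnp, -0.30), the range was 16.64 to 16.76 in the D2 background and 16.64 to 16.87 in the B6 background. For 6 astrocyte genes, 2 of them higher (Slc1a2, 0.43), it was 15.84 to 16.10 and 15.82 to 16.02, and for 5 neuron genes, 1 higher and 1 lower, 17.27 to 17.49 and 17.28 to 17.43. Of 5 choroid plexus genes all had negative differences and 1 was lower (Folr1, -0.58), with a range of 16.08 to 16.21 in the D2 background and 16.10 to 16.23 in the B6 background, and of 5 endothelial genes 0 were called. Signals were summed before the log2 was taken, so the brightest genes of a list weigh most in its sum. The median difference per gene was -0.32 for microglia, -0.21 for oligodendrocyte, -0.01 for astrocyte and -0.01 for neuron genes. It was -0.09 for choroid plexus and 0.01 for endothelial genes. Apart from Snap25 and Nefl, no marker of these lists with a probe was undetected. Of the 5 oligodendrocyte genes, D2 minus B6 called 0 (20.4% of all probes) and R2 minus R8 called 3, all lower (21.7%). In R8 minus B6 all 5 had positive differences (median 0.16) and 0 were called. An unadjusted p under 0.05 was reached there by 3 of them, beside 4.13% of all probes. The part of these cell types in the member differences was not tested.

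Genes around the pathways were read from companion lists. Around the citric acid cycle, 19 of 28 genes were tested and 3 were higher in the D2 background (15.8%, beside 28.0% of all probes), 0 lower. Me2, a mitochondrial malic enzyme that turns malate into pyruvate, had 10.15, 10.28 and 10.43 in R2 and 10.02, 10.23 and 10.41 in D2, against 7.80, 8.24 and 9.14 in R8 and 7.89, 8.11 and 8.69 in B6. The backgrounds did not overlap, a separation shown by 4.89% of tested probes. The difference was 2.01 (SE 0.091, adjusted p = 3.57e-19), which is 4.04-fold, or 1.33 without background correction. Whether the strains differ in sequence under its probe was not tested. Idh1, the cytosolic isocitrate dehydrogenase, was higher by 0.31 (SE 0.052, adjusted p = 1.23e-05), with 10 of 12 arrays above every array of the B6 background. Pdk4, a kinase that switches off pyruvate dehydrogenase, was higher by 0.45 (SE 0.079, adjusted p = 2.57e-05), or 0.26 without background correction.
Around fatty acid oxidation, 23 of 35 genes were tested, of which 4 were higher and 5 lower (39.1%, beside 28.0% of all probes). Mlycd, which removes the malonyl-CoA that blocks carnitine palmitoyltransferase, had 12.45, 12.51 and 12.60 in R2 and 11.55, 12.42 and 12.78 in D2, against 11.26, 11.51 and 11.73 in R8 and 11.42, 11.54 and 11.59 in B6. The lowest D2 value, that of replicate 1, fell within the range of the B6 background, and the other 11 arrays lay above it. The difference was 0.93 (SE 0.068, adjusted p = 1.69e-13), which is 1.90-fold, and 1.00 without that array. Acaca, which makes malonyl-CoA, was lower, at -0.20 (SE 0.044, adjusted p = 0.000614). Crat, the carnitine acetyltransferase, was higher at 0.35 (SE 0.067, adjusted p = 7.88e-05), and Echdc2, which resembles enoyl-CoA hydratases, lower at -0.26 (SE 0.044, adjusted p = 1.75e-05). Ppargc1a, a coactivator of mitochondrial genes, was higher at 0.21 (SE 0.051, adjusted p = 0.00138). Bdh1, a ketone body dehydrogenase, was lower at -0.19 (SE 0.051, adjusted p = 0.00377). Its mean was 11.14 in D2 and 11.46 in B6, but 11.36 in R2 and 11.42 in R8, so it differed mostly in the parental strains. Acaca had means of 11.97 in D2 and 12.25 in B6, and of 12.10 in R2 and 12.21 in R8. D2 replicate 1 was the lowest D2 array for both genes. Of the 42 companions, 0 were called in R8 minus B6 and 0 in R2 minus D2, and 2 and 9 had an unadjusted p under 0.05, beside 4.13% and 15.3% of all probes.

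**Figure D4:**
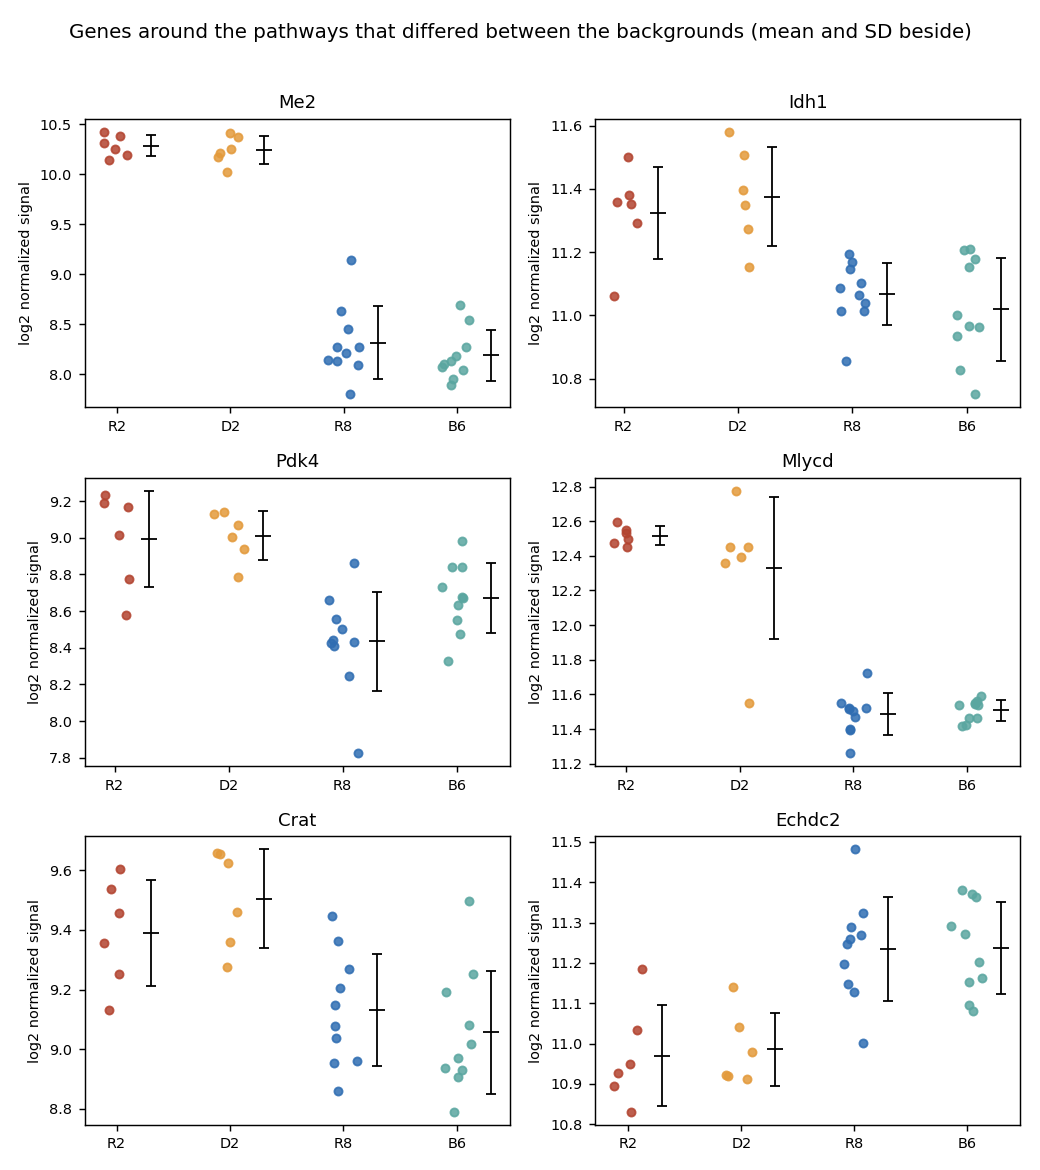
Log2 normalized signal of every array for 6 companion genes, by strain (R2 and D2, then R8 and B6). Points are arrays and the bar beside them is the mean with the SD (n = 6, 6, 10 and 10). Me2 separates the backgrounds, and 1 D2 array of Mlycd lies with R8 and B6.

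Within strains, the median member varied less than the median probe, and pairs of members had a median correlation near 0. The median SD within strains was 0.105 over the cycle genes and 0.141 over the oxidation genes, against 0.163 over all tested probes. The steadiest were Slc25a20 (0.061), Hadhb (0.076) and Pdha1 (0.082), and the most variable were Decr1 (0.331), Acads and Hadh (0.299 or more), the genes with partial detection. For deviations from the strain mean over the 32 arrays, the median Pearson r was -0.02 over 136 pairs of cycle genes, 0.11 over 120 pairs of oxidation genes and 0.03 over 272 pairs between them, beside -0.00 over all pairs of probes. An r over 0.5 was found in 5.88%, 4.17% and 4.41% of these pairs, and in 2.27% of all pairs. With blocks of 8 neighbouring columns also removed, the shares were 9.56%, 5.83% and 4.41%, beside 2.80% of all pairs.
Single pairs stood out in both directions. The highest r was 0.80, between Idh3g and Acaa2, followed by 0.63 for Idh3b with Echs1 and 0.63 for Idh3a with Idh3b, subunits of the same enzyme. The lowest was -0.64, between Idh3g and Dld, and Dld also ran against Idh3b (-0.61) and Acaa2 (-0.59). With blocks of neighbouring columns removed, the Idh3g and Acaa2 pair had 0.77 and the Idh3g and Dld pair -0.65. D2 replicate 1, the array that stood apart, was the lowest D2 array for Idh3a, Idh3b and Echs1 and the highest for Dld. No r is given without it, so its share in these pairs is not known. These correlations describe arrays that share their normalization, and no test was made of them.

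**Figure D5:**
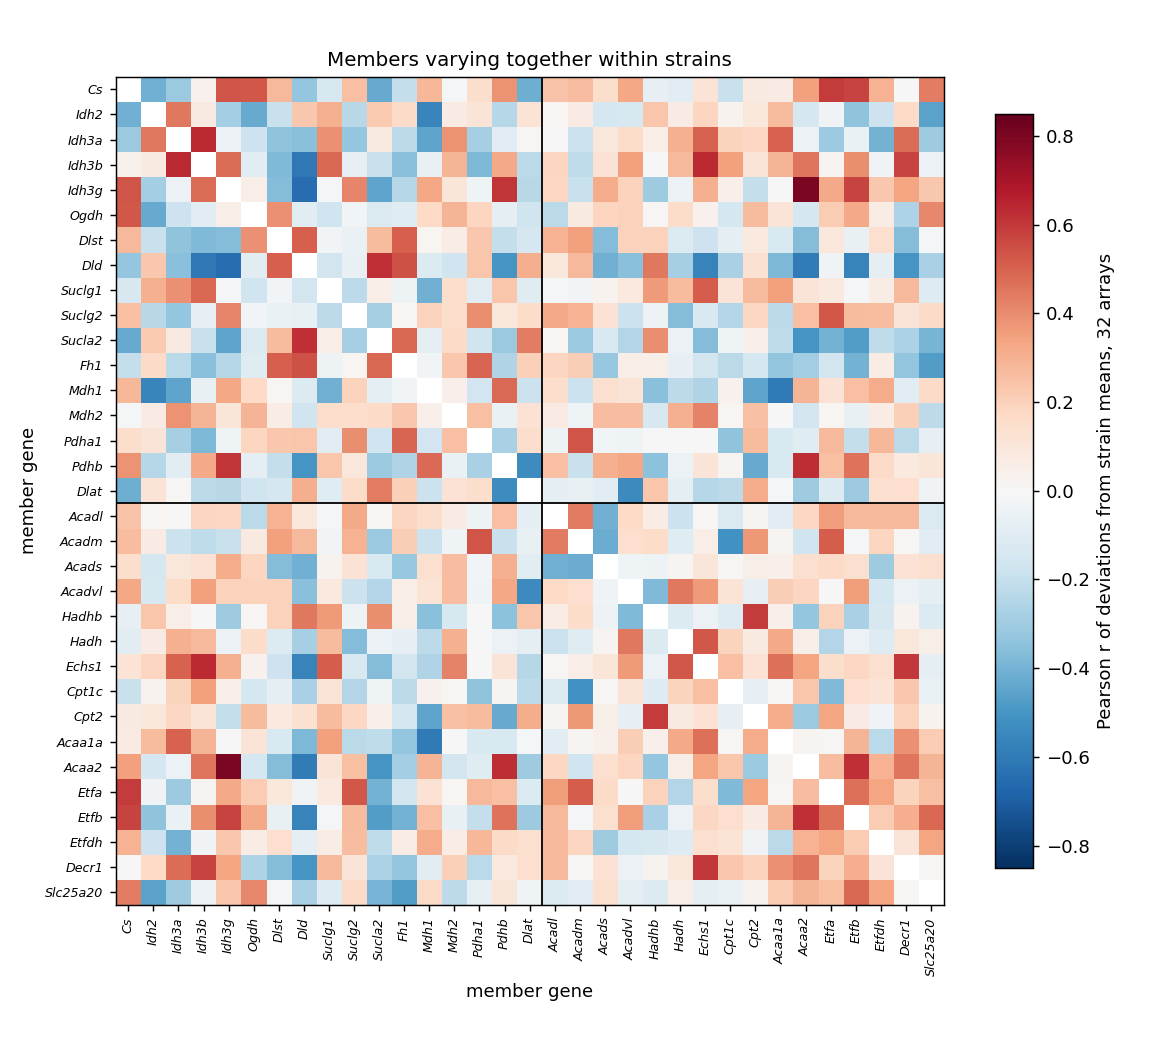
Pearson r of the deviations from strain means over 32 arrays for each pair of the 33 measured members (both axes list the genes, the cycle genes first, and the colour gives r). Black lines part the pathways. The median r was -0.02 within the cycle, 0.11 within oxidation and 0.03 between them, and single pairs ran from -0.64 to 0.80. Dld ran against several members of both.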

How the data were processed

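The 32 arrays, 1 per mouse, measured whole-brain total RNA, and the labels gave each array its strain and number. The main table holds, as deposited, the average bead signal of 25697 probes, an intensity without normalization or background subtraction by the authors. It also holds the deposited detection p-value of every probe and array. Another table, deposited with intensity after quantile normalization by the authors (lumi, per their methods), served as an alternative.

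All 32 arrays were processed together with limma 3.58.1 in R 4.3.3. The neqc function corrected the background with negative controls inferred from the detection p-values, applied quantile normalization and gave log2 values (offset 16). The 12351 probes detected (p under 0.01) in 6 or more arrays were fitted by lmFit and eBayes with 1 mean per strain (28 residual degrees of freedom). Calls used an adjusted p under 0.05, by Benjamini-Hochberg over all tested probes. The offset compresses values near background, so that differences of dim probes are understated. The platform table gives a symbol for 23978 probes and none for 1719. Where more than 1 probe of a gene qualified, as in 9 members, the brightest on average stood for it.

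The genes named per pathway and comparison were those called, or otherwise the 3 with the smallest p, with members lacking a tested probe and members whose probes differ in call, and up to 6 called companions. Acaca, Bdh1, Ppargc1a and the other genes named beyond this rule were added after their values were seen. The members and all gene lists were chosen with earlier results of these data known. Alternatives covered normalization, background correction, detection filter, array blocks, replicate numbers, the test, the probe and each array left out. The fit was tested on simulated data. The number of arrays limits the precision.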

Additional observations from a re-analysis of the deposited data

Results flagged for a closer look

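Over 132 combinations of a member and a strain, 5 had an array far from the others of its strain, where chance gives about 1 in 20 (6.60 expected). In D2 replicate 1, the array that stood apart over all probes, Idh3a was the lowest at 12.67 with the next D2 array at 13.01, and Cpt1c was the lowest at 8.92 with the next at 9.24. In R2 replicate 1, Idh2 was the highest at 12.61, with the next R2 array at 12.40. In R8 replicate 6, the brighter probe of Pdhb was the highest at 12.65, with the next R8 array at 12.42. In R8 replicate 1, Hadh was the lowest at 7.64, with the next at 8.04. No member passed an adjusted p of 0.05 for D2 minus R2 against R8 minus B6 (smallest 0.597, Acaa1a), which compares segments of unlike length.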

How the results depend on the processing

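The counts of members called in R8 minus B6 and in R2 minus D2 were 0 under every alternative and every array left out. The number of probes called in R2 minus D2 was 61 and moved to 36 with median scaling, 37 without a detection filter, 18 with the 2 strains processed alone, 40 with blocks by the numbers in the labels and 7 by an unmoderated test of each probe, and to between 32 (without D2 replicate 3) and 127 (without D2 replicate 2) with 1 array left out. At an unadjusted p under 0.01 this comparison had 632 probes, 312 with the 2 strains alone, 311 by the unmoderated test and 325 to 869 with 1 array left out. R8 minus B6 had 116 such probes, and 232 without a filter. The interaction called 14 probes, and 9 with median scaling. In R2 minus D2, 0 cycle genes had an unadjusted p under 0.01 (1 with blocks of neighbouring columns, an alternative chosen after seeing the data, and 0 to 1 with an array left out), and 0 oxidation genes (0 to 2). Cycle genes called in D2 minus B6 numbered 1, with 2 under either kind of block, 0 by the unmoderated test and 1 to 3 with an array left out. In R2 minus R8, the 2 cycle and 2 oxidation genes called became 1 to 3 of each with an array left out, and 1 oxidation gene by the unmoderated test. Taking the probe with the smallest p turned Pdhb round, to -0.35 between the backgrounds, -0.38 in D2 minus B6 and -0.32 in R2 minus R8. Acaa1a stayed called in all 3 background comparisons under every alternative run, between -0.84 and -0.61. The differences of Decr1, Acadl, Me2 and Pdk4 shrank by more than 1.5 times without background correction, and that of Pdha1 in R2 minus D2 to -0.08 with median scaling. The causes were not tested. The strains share replicate numbers, which were not treated as pairs: deviations of same-numbered arrays had r over 0.1 in 2 of 10 pairs of R8 and B6 and in 4 of 6 pairs of R2 and D2, and 1 and 2 pairs correlated best with their own number. With the replicate number as a block, the dimmer Acadl probe lost its call between the backgrounds (adjusted p = 0.0728), as did Ppargc1a in R2 minus R8 (0.0788), and no other named result changed its call. With 6 R2 and 6 D2 arrays, differences above 0.25 in size were not excluded for most oxidation genes.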

Other observations

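Me1, the cytosolic malic enzyme that makes NADPH from malate, is a companion whose 2 tested probes gave very different readings, and it is named after its values were seen. By 1 probe it was detected in 0 of 12 arrays of the D2 background (6.16 to 7.09) and in 20 of 20 of the B6 background (11.05 to 11.43). These ranges did not overlap, as for 4.89% of tested probes. By the brighter probe it was detected in all 32 arrays, at 11.58 to 12.12 in the D2 background and 11.74 to 12.06 in the B6 background, a difference of -0.10 (limma, adjusted p = 0.0873). The sequences under the probes were not examined.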
